A study of Homo sapiens with 6 samples.

Results

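CDK inhibitors and G1 cyclins set how readily a cell leaves G1, and 10 of their genes were followed here in breast cancer cells under 3 rates of fluid flow. The genes were chosen by symbol, with earlier results of these data known. They were the CIP/KIP inhibitors CDKN1A, CDKN1B and CDKN1C, the INK4 inhibitors CDKN2A, CDKN2B, CDKN2C and CDKN2D, and the cyclin genes CCND1, CCND3 and CCNE2. All 10 had a row among the 60591 rows of the count table. Of the 10, 8 passed the filter on low counts and were tested, and the other 2, CDKN2A and CDKN2B, had 0 counts in every library. The cells were MDA-MB-231, an established human line of triple-negative breast cancer, in a bone-homing variant, and polyA RNA was sequenced from 2 libraries each of static cells (0 mL/min), cells at a low flow rate (1 mL/min) and cells at a high flow rate (15 mL/min). The series uses fluid shear to mimic mechanical loading of bone metastases, and no other treatment is labelled. The labels number the libraries of a condition as replicates without saying that they came from separate cultures. The p-values therefore cover only the spread between libraries, which may be technical.

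Library totals were 17822642 and 23544307 counts in static cells, 45174328 and 47067620 under low flow, and 43965176 and 53279537 under high flow. Both static libraries were shallower than every flow library, so depth cannot be told apart from flow in either comparison with static. The static and low flow libraries share a lane and the high flow libraries came from another, so the lane cannot be told apart from the flow rate in comparisons with high flow. The names of the high flow columns also differ in form from the others, with the word sorted added. Any other step that differed along with the lane cannot be told apart from high flow either. The labels call the cells endothelial, but the keratin gene KRT18 had 164 to 237 CPM (counts scaled to library size), while CDH5 was at most 0.0869 CPM and VWF at most 0.221 CPM. VIM had 3618 to 5031 CPM. The 5 endothelial marker genes summed to 13.2 to 14.2 CPM under high flow and 14.9 to 15.9 CPM under low flow, against 9.98 to 10.997 CPM in static cells. Most of that sum was PECAM1, whose log2 fold change was 0.55 under high flow (adjusted p = 0.0139) and 0.70 under low flow (adjusted p = 0.00778) against static. KDR, another of the 5, had 0.702 and 0.413 CPM under high flow against 1.16 and 1.70 CPM in static cells (log2 fold change -1.39, adjusted p = 0.0214). The part of these marker genes in the results below was not tested.

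Cells pass from G1 into S phase when CDK4 or CDK6 bound to a D cyclin, and then CDK2 bound to an E cyclin, phosphorylate the retinoblastoma protein and release E2F factors. INK4 proteins bind CDK4 and CDK6 and keep D cyclins off. CIP/KIP proteins bind assembled cyclin and CDK complexes and block CDK2 in particular, though they also help cyclin D complexes form. In breast cancer CCND1 is a known oncogene, and MDA-MB-231 is known to lack CDKN2A. Much of the control of p27, the product of CDKN1B, and of the cyclins is by protein turnover, which RNA counts do not measure.

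The promoters of CDKN1A and CDKN1B are shown because CDKN1A rose and CDKN1B fell in high flow against static. CDKN1A lies on chromosome 6 (36676460 to 36687339, plus strand, GRCh38) and CDKN1B on chromosome 12 (12715058 to 12722371, plus strand). Each stretch holds 250 bases before and 50 bases from the start that RefSeq gives on GRCh38.p14, at chr6:36678464-36678763 for CDKN1A and chr12:12717118-12717417 for CDKN1B, both plus strand, with GGGCGG, the core of the GC box bound by SP and KLF factors, in capitals.
CDKN1A: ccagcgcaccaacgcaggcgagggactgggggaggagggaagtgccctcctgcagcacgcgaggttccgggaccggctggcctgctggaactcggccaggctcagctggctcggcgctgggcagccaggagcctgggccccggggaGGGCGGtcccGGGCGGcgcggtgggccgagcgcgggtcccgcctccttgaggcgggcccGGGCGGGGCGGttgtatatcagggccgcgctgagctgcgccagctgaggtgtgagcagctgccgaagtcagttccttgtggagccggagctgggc
CDKN1B: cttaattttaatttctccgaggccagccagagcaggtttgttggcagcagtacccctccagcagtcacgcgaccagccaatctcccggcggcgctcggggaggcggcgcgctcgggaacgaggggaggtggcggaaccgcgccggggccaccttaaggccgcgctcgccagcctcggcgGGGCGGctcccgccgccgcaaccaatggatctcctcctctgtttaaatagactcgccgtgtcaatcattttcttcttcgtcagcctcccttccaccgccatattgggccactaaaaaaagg
Matches were counted on both strands, so CCAAT also stands for ATTGG as printed. The CDKN1A stretch had a GC content of 74.3% and held GGGCGG 4 times, the last 2 matches sharing a base, and CCAAT 0 times. The CDKN1B stretch had a GC content of 62.3% and held GGGCGG 1 time and CCAAT 3 times. Counted in the same way, GGGCGG was in 45.0% and CCAAT in 34.6% of the 35116 RefSeq promoters of the same length. On either strand, there was no match in either stretch to the TATA box TATAAA, the E-box CACGTG, the forkhead motif TGTTTAC, the AP-1 motif TGANTCA, the E2F motifs TTTGGCGC and also TTTCCCGC, or the SMAD motif GTCTAGAC, which says only that these letters are not in these windows. These motifs were in 0.202% (SMAD) to 11.5% (TATA box) of the same promoters. RefSeq's table had entries for 7 of the 10 members.

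The CIP/KIP genes moved in different directions under flow. CDKN1A was higher under high flow, CDKN1B was lower under high flow, and CDKN1C was lower under both rates. CDKN1A encodes p21, an inhibitor best known for its part in cell cycle arrest. It had 122 and 104 CPM in static cells, 134 and 123 CPM at 1 mL/min and 180.3 and 168 CPM at 15 mL/min. All 4 flow libraries lay above both static libraries, and both high flow libraries lay above both low flow libraries. In bulk RNA, a change in the share of cells that express a gene and a change in RNA per cell cannot be told apart. Mean levels were 174 ± 8.81 CPM under high flow against 113 ± 12.6 CPM in static cells (SD, n = 2 each), a 1.54-fold difference with a log2 fold change of 0.63 (SE 0.10, 95% interval 0.41 to 0.84, adjusted p = 0.00102 by edgeR's quasi-likelihood test). The log2 fold change of low flow against static was 0.19 (95% interval -0.02 to 0.41, adjusted p = 0.276). For high flow against low flow it was 0.44 (95% interval 0.22 to 0.65, adjusted p = 0.0935), which did not pass, although it passed without low flow replicate 1 (adjusted p = 0.0236), without the expression filter (adjusted p = 0.00442) and with DESeq2 (adjusted p = 0.0138). The call for high flow against static held in all 13 alternatives, with an adjusted p of at most 0.0436.

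CDKN1B, which encodes p27, had 32.9 and 35.2 CPM in static cells, 35.5 and 39.9 CPM at 1 mL/min and 23.3 and 23.4 CPM at 15 mL/min. Both high flow libraries lay below the other 4, and the low flow libraries lay just above the static ones. The mean under high flow, 23.3 ± 0.0180 CPM, was 1.46-fold lower than the 34.0 ± 1.59 CPM in static cells (log2 fold change -0.55, SE 0.11, 95% interval -0.77 to -0.32, adjusted p = 0.00387). It was 1.62-fold lower than the 37.7 ± 3.11 CPM under low flow (SD, n = 2 each), with a log2 fold change of -0.69 (SE 0.10, 95% interval -0.91 to -0.47, adjusted p = 0.00427). Low flow against static gave 0.15 (95% interval -0.08 to 0.37, adjusted p = 0.428). The high flow calls rested on few libraries. Against static, the adjusted p was 0.0747 without high flow replicate 1 and 0.0637 without static replicate 2, and against low flow it was 0.155 without high flow replicate 1 and 0.0998 without high flow replicate 2, while the log2 fold change stayed between -0.59 and -0.49 and between -0.77 and -0.60 in these comparisons over all alternatives.

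CDKN1C, an imprinted gene on chromosome 11 (2883213 to 2885773, minus strand, GRCh38) that encodes p57, had 12.2 and 12.5 CPM in static cells, 7.29 and 6.86 CPM at 1 mL/min and 8.59 and 6.76 CPM at 15 mL/min. The 4 flow libraries lay below both static libraries, and the flow rates overlapped. Its mean of 7.07 ± 0.304 CPM under low flow was 1.74-fold lower than the 12.3 ± 0.206 CPM in static cells (SD, n = 2 each), with a log2 fold change of -0.80 (SE 0.15, 95% interval -1.13 to -0.48, adjusted p = 0.00712). Under high flow the mean was 7.67 ± 1.29 CPM, with a log2 fold change of -0.69 against static (SE 0.15, 95% interval -1.01 to -0.36, adjusted p = 0.00764). High flow against low flow gave 0.11 (95% interval -0.20 to 0.43, adjusted p = 0.853). The low flow call was lost without static replicate 2 (adjusted p = 0.0830), and the high flow call without high flow replicate 2 (adjusted p = 0.112) or static replicate 2 (adjusted p = 0.0889). KCNQ1OT1, the imprinted antisense RNA of the same cluster, shares no exon with CDKN1C. It had 9.92 to 10.7 CPM under low flow, where it did not pass. Under high flow it had 14.7 and 12.6 CPM against 8.60 and 9.91 CPM in static cells (log2 fold change 0.55, adjusted p = 0.0178). Its call was lost with offsets for length and GC content (adjusted p = 0.0553) and without high flow replicate 1 (0.219), high flow replicate 2 (0.0513), static replicate 1 (0.0960) or static replicate 2 (0.0729), each an adjusted p.

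**Figure D1:**
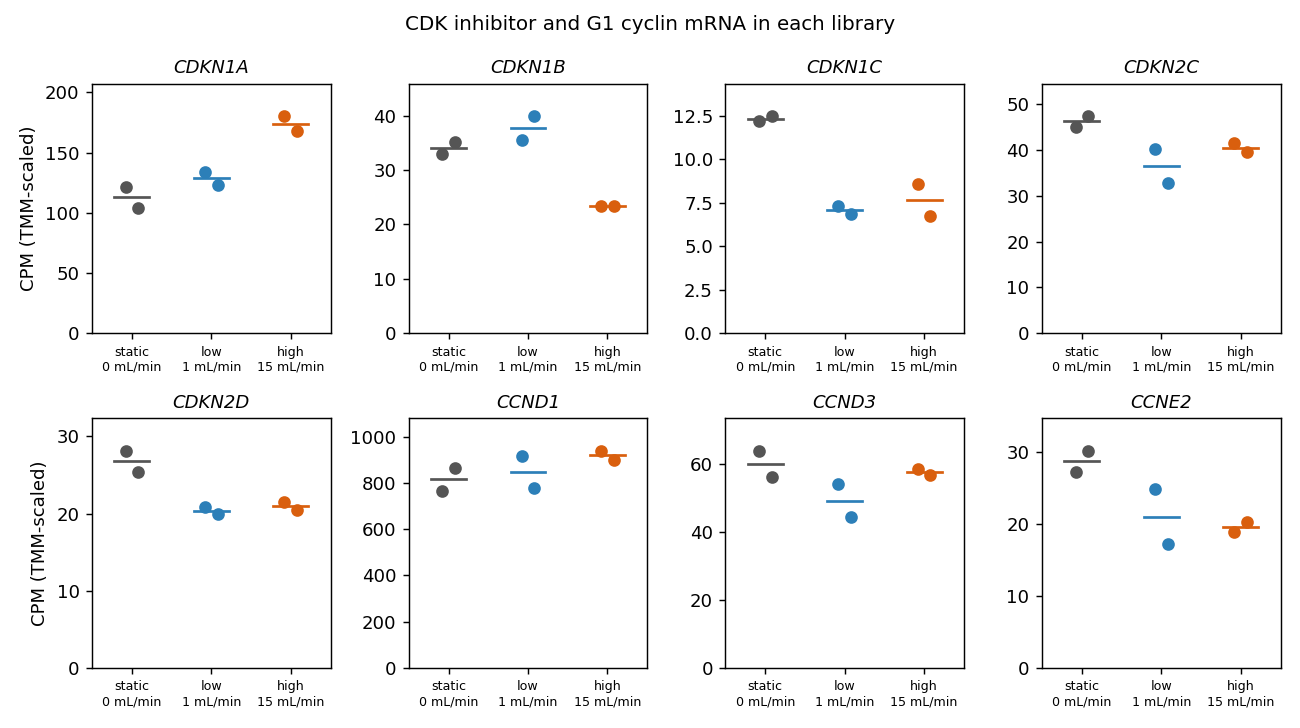
CPM (TMM-scaled) of the 8 members with counts, in 1 panel each, for both libraries at 0, 1 and 15 mL/min, with a bar at the mean of each condition. CDKN1A was highest and CDKN1B lowest at 15 mL/min, and CDKN1C was highest in static cells.

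Ratios of counts within a library do not depend on how libraries are scaled. They are not corrected for effects of length and GC content that differ between libraries. With offsets for these, the log2 fold changes of high flow against static were 0.50 (CDKN1A), -0.50 (CDKN1B) and -0.90 (CDKN1C). Without offsets they were 0.63, -0.55 and -0.69. The ratio of CDKN1A to CDKN1B counts was 7.73 and 7.18 under high flow, against 3.70 and 2.95 in static cells, and it was 3.77 and 3.08 under low flow. The low flow and static ratios overlapped, and the high flow ratios lay above both. The ratio of CDKN1A to CDKN1C was 21.0 and 24.8 under high flow and 18.4 and 18.0 under low flow, against 9.98 and 8.32 in static cells, so both flow rates lay above static. The ratio of CDKN1B to CDKN1C was 2.72 and 3.46 under high flow and 4.88 and 5.82 under low flow, against 2.70 and 2.82 in static cells, so low flow lay above the others and high flow overlapped static. Per kb of exon, CDKN1A made up 83.3% to 83.4% of the summed CIP/KIP level under high flow and 70.4% to 73.8% under low flow, against 66.0% to 70.6% in static cells. The share of CDKN1B was 11.7% to 12.6% under high flow and 21.2% to 24.8% under low flow, against 20.7% to 24.2% in static cells. No test was run on these ratios and shares.

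Of the INK4 genes, CDKN2D passed narrowly under both flow rates, CDKN2C in no comparison, and CDKN2A and CDKN2B were not detected. CDKN2A encodes p16 (and, from another reading frame, ARF), and CDKN2B encodes p15. They lie side by side on chromosome 9 (21967753 to 21995301 and 22002903 to 22009363, both minus strand, GRCh38). Each had 0 of 230853610 counts over the 6 libraries, which allows up to 0.0130 CPM, and the limit within a library was 0.0563 to 0.168 CPM. These limits, taken as 3 counts, cover counting error only. The zeros were not limited to the pair. Between FOCAD (2.17 to 3.08 CPM), which ends at 20995955, and TUSC1 (9.61 to 12.2 CPM), which starts at 25676389, lie 4680434 bp with 25 protein-coding genes, and all 25 had 0 counts in all 6 libraries. They include MTAP, which encodes an enzyme of methionine salvage, and KLHL9 and HACD4. Of the 67 annotated genes of any type in the stretch, 63 had 0 counts, and the others were CDKN2B-AS1, the antisense RNA of the locus, with 11 counts over the 6 libraries, and the pseudogenes CLIC4P1 (16 counts), KHSRPP1 (8 counts) and UBA52P6 (1 count). The stretch was bounded after its values were seen, and many of its genes are interferon genes that resting cells seldom express.

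CDKN2D, which encodes the INK4 protein p19, lies on chromosome 19 (10566462 to 10569059, minus strand). It had 28.1 and 25.4 CPM in static cells, 20.8 and 19.9 CPM at 1 mL/min and 21.4 and 20.5 CPM at 15 mL/min. The 4 flow libraries lay below both static libraries. Its log2 fold change against static was -0.39 under low flow (SE 0.11, 95% interval -0.63 to -0.16, adjusted p = 0.0428) and -0.35 under high flow (SE 0.11, 95% interval -0.58 to -0.11, adjusted p = 0.0444). For high flow against low flow it was 0.04 (95% interval -0.19 to 0.27, adjusted p = 0.935). The calls passed in 6 of 14 alternatives for low flow and 7 of 13 for high flow. In low flow against static the adjusted p was 0.162 without static replicate 1, 0.110 without static replicate 2, 0.253 without low flow replicate 2, 0.0880 without high flow replicate 1 and 0.0864 without high flow replicate 2. For high flow the adjusted p was 0.173 without static replicate 1, 0.101 without static replicate 2, 0.198 without high flow replicate 1 and 0.210 without high flow replicate 2.

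CDKN2C, which encodes p18, lies on chromosome 1 (50960745 to 50974633, plus strand). It had 45.2 and 47.4 CPM in static cells, 40.2 and 32.9 CPM at 1 mL/min and 41.5 and 39.5 CPM at 15 mL/min. Both flow rates lay below static without overlap, but neither difference passed. The log2 fold change against static was -0.34 under low flow (95% interval -0.58 to -0.11, adjusted p = 0.0685) and -0.19 under high flow (95% interval -0.43 to 0.04, adjusted p = 0.256), and the low flow difference passed in 3 of 14 alternatives. Among these were leaving out low flow replicate 1 (log2 fold change -0.49, adjusted p = 0.00682) and length and GC offsets (-0.37, adjusted p = 0.0412). Per kb of exon, CDKN2D was above CDKN2C in every library, with 53.3% to 57.9% of their sum.

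Among the cyclin genes, CCNE2 was lower under high flow than in static cells, and neither CCND1 nor CCND3 passed in any comparison. CCND1 encodes cyclin D1 and lies on chromosome 11 (69641087 to 69654474, plus strand). It had 768 and 866 CPM in static cells, 916 and 778 CPM at 1 mL/min and 940.0 and 901 CPM at 15 mL/min. The high flow libraries lay above the static ones, and the low flow libraries overlapped both. The log2 fold change against static was 0.17 under high flow (95% interval -0.06 to 0.41, adjusted p = 0.319) and 0.05 under low flow (95% interval -0.18 to 0.29, adjusted p = 0.830). For high flow against low flow it was 0.12 (95% interval -0.11 to 0.35, adjusted p = 0.766). LTO1 on the opposite strand covers 10.3% of its exon bases, and DINOL covers 4.79% of those of CDKN1A. The sources used here do not give the strand setting of the counting, so reads of such pairs may not be told apart.

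CCND3, which encodes cyclin D3, lies on chromosome 6 (41934933 to 42050357, minus strand). It had 64.0 and 56.2 CPM in static cells, 54.1 and 44.5 CPM at 1 mL/min and 58.7 and 57.0 CPM at 15 mL/min. Its log2 fold change against static was -0.29 under low flow (95% interval -0.52 to -0.05, adjusted p = 0.124) and -0.05 under high flow (95% interval -0.29 to 0.18, adjusted p = 0.783). High flow against low flow gave 0.23 (95% interval 0.0029 to 0.46, adjusted p = 0.515). The low flow difference passed without low flow replicate 1 (log2 fold change -0.43, adjusted p = 0.0161) and with length and GC offsets (adjusted p = 0.0447). CCND2, the other D cyclin gene, had log2 fold changes of -0.11 (high flow, adjusted p = 0.653) and -0.10 (low flow, adjusted p = 0.731) against static, and CCND1 made up 92.1% to 94.4% of the summed D cyclin level per kb in every library.

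CCNE2, which encodes cyclin E2 and lies on the minus strand of chromosome 8, had 27.2 and 30.2 CPM in static cells, 24.8 and 17.2 CPM at 1 mL/min and 18.9 and 20.2 CPM at 15 mL/min. The 4 flow libraries lay below both static libraries, and the low flow libraries stood far apart. Its mean was 19.5 ± 0.961 CPM under high flow against 28.7 ± 2.07 CPM in static cells (SD, n = 2 each), which is 1.47-fold lower (log2 fold change -0.56, SE 0.15, 95% interval -0.88 to -0.23, adjusted p = 0.0255). The call was lost without high flow replicate 1 (adjusted p = 0.198), high flow replicate 2 (0.0901), static replicate 1 (0.0761) or static replicate 2 (0.250), and with length and GC offsets (0.0851). Under low flow the log2 fold change was -0.45 (95% interval -0.77 to -0.13, adjusted p = 0.0839), and it was -0.74 without low flow replicate 1 (adjusted p = 0.000130) and -0.21 without low flow replicate 2 (adjusted p = 0.633). It passed in 3 of 14 alternatives, among them no expression filter (-0.42, adjusted p = 0.0135). High flow against low flow gave -0.10 (95% interval -0.42 to 0.21, adjusted p = 0.866). Exons of INTS8 on the opposite strand cover 37.0% of the exon bases of CCNE2. INTS8 had log2 fold changes of -0.30 under high flow (adjusted p = 0.103) and -0.10 under low flow (adjusted p = 0.658) against static. CCNE1, the gene of the other E cyclin, had a log2 fold change of -0.38 under high flow (adjusted p = 0.0911) and fell under low flow by 0.54 on the log2 scale (adjusted p = 0.0361).

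Over the 8 tested members, 1 rose and 4 fell in high flow against static, where 13.9% of 20676 tested genes passed (1549 or 7.49% higher and 1329 or 6.43% lower; with length and GC offsets 926 higher and 1220 lower). In low flow against static, 0 rose and 2 fell, CDKN1C and CDKN2D, where 6.74% of genes passed (672 or 3.25% higher and 722 or 3.49% lower; with offsets 736 higher and 1176 lower). Between the flow rates 0 rose and CDKN1B fell, in high flow against low flow, where 0.334% of genes passed (0.242% higher and 0.0919% lower). Groups without overlap were commoner. In high flow against static 2 members lay wholly above and 5 wholly below, where 29.9% and 29.4% of all genes did, and in low flow against static the members' counts were again 2 and 5, where 27.1% and 26.3% of all genes did. Between the flow rates, 2 members lay wholly above under high flow and 1 below, where 21.2% and 21.5% of all genes did. The median log2 fold change of the 8 members was -0.27 in high flow against static, -0.31 in low flow against static and 0.12 in high flow against low flow, beside 0.00, 0.01 and 0.01 over all genes tested. High and low flow were each set against the same static libraries, so their values for a member are not independent. The members, and the lists below, were chosen with earlier results of these data known. Setting them beside all genes therefore describes them and tests nothing.

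**Figure D2:**
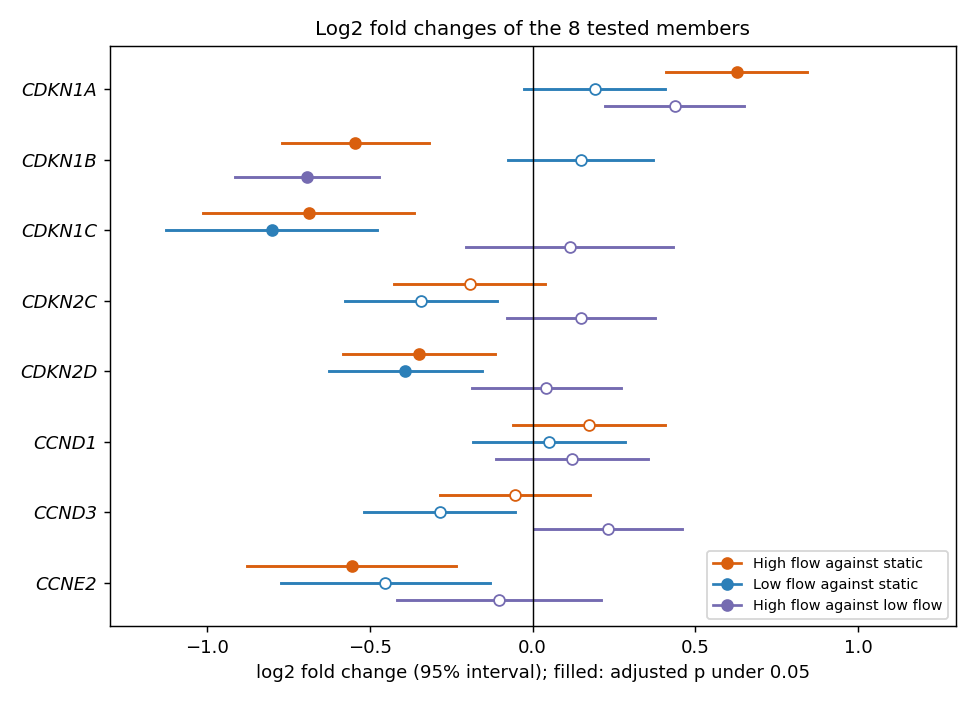
Log2 fold change of the 8 tested members in the 3 comparisons, with 95% intervals as lines and filled points where the adjusted p was under 0.05. In high flow against static, the points of CDKN1A (0.63) and CDKN1B (-0.55) lie on opposite sides of 0.

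Levels of different genes were set side by side as CPM per kb of exon. CCND1 stood highest, at 159 to 195 CPM per kb over the 6 libraries, and CDKN1A followed at 34.0 to 59.1, neither overlapping another member. CDKN2D (13.3 to 18.7), CDKN2C (9.90 to 14.3), CDKN1B (8.30 to 14.2) and CCND3 (7.67 to 11.03 CPM per kb) came next, and each overlapped its neighbour in this order. CCNE2 (3.90 to 6.86) and CDKN1C (2.73 to 5.03 CPM per kb) were lowest of those detected and overlapped each other, but no other member. CCNE2 made up 52.0% to 59.3% of the summed level per kb of both E cyclin genes. The exon length counts every annotated exon once, so a gene that uses a few of its exons has a higher level than given here.

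**Figure D3:**
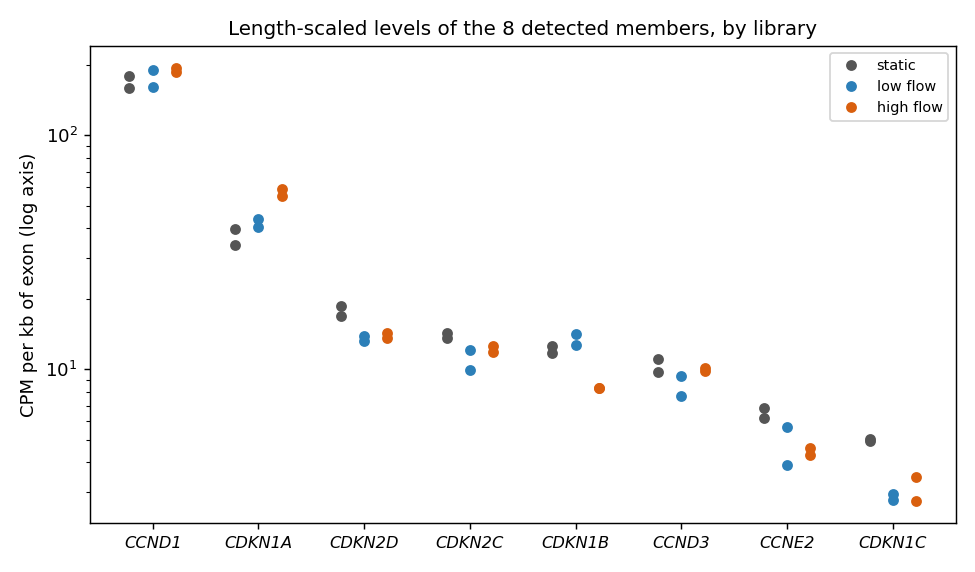
Level of each detected member as CPM per kb of exon on a log axis, with 1 point per library and colour for the flow rate. CCND1 (159 to 195 CPM per kb) and CDKN1A (34.0 to 59.1) stand clear of the rest.

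CDK2, CDK4 and CDK6, the kinases that the inhibitors and cyclins bind, passed in no comparison. With length and GC offsets, however, CDK2 passed in low flow against static (log2 fold change -0.30, adjusted p = 0.0454). Of 12 other G1 cyclin and CDK genes, 0 rose and 2 fell in each comparison with static. MNAT1, a subunit of the CDK-activating kinase, fell under high flow (log2 fold change -0.45, adjusted p = 0.00701) and low flow (-0.35, adjusted p = 0.0434). CDK7, the catalytic subunit of that kinase, fell under high flow (-0.36, adjusted p = 0.0328), and CCNE1 was the other gene that fell under low flow. CDK4, the partner of D cyclins, had log2 fold changes of 0.08 under high flow (adjusted p = 0.647) and 0.05 under low flow (adjusted p = 0.842). For CDK6 these were -0.04 (adjusted p = 0.814) and -0.02 (adjusted p = 0.921), and for CDK2, the partner of E cyclins, -0.22 (adjusted p = 0.155) and -0.30 (adjusted p = 0.0734). The list's median was -0.27 in both comparisons, with 8 of 12 genes wholly below static under high flow and 7 of 12 under low flow. Of all genes tested, 29.4% lay wholly below static under high flow and 26.3% under low flow. In high flow against static 7.49% of all genes passed higher and 6.43% lower. In low flow against static these shares were 3.25% and 3.49%, and they are the background for each list below as well.

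Of 15 genes of the ubiquitin ligases that turn over inhibitors and cyclins, 1 rose and 2 fell in high flow against static, and 0 rose and 2 fell in low flow against static. Those that fell were SKP2 and CKS1B, the receptor and cofactor that target p27. SKP2 had 23.2 and 27.2 CPM under high flow and 27.4 and 23.3 CPM under low flow, against 34.0 and 34.9 CPM in static cells. Its log2 fold change was -0.45 under high flow (adjusted p = 0.0172) and -0.44 under low flow (adjusted p = 0.0312). For CKS1B these were -0.39 (adjusted p = 0.0259) and -0.42 (adjusted p = 0.0326). RNF123, a subunit of a ligase that targets p27 in G1, rose under high flow (0.42, adjusted p = 0.0148). With length and GC offsets none of these 3 passed under high flow, at adjusted p of 0.0518 for SKP2, 0.109 for CKS1B and 0.158 for RNF123. The list's median was -0.05 under high flow and 0.01 under low flow. MDM2, the gene of another ubiquitin ligase, which is not in this list, had log2 fold changes of -0.12 under high flow (adjusted p = 0.447) and -0.02 under low flow (adjusted p = 0.934).

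Of 18 genes of pocket proteins, E2F and DP factors and the DREAM complex, 0 rose and 4 fell under high flow, and 1 rose and 1 fell under low flow. LIN9, of the MuvB core that DREAM is built on, fell under high flow (log2 fold change -0.58, adjusted p = 0.00730) and low flow (-0.48, adjusted p = 0.0345). LIN52 and LIN54, of the same core, and RBL1, which encodes the pocket protein p107, fell under high flow with log2 fold changes of -0.45, -0.39 and -0.39 (adjusted p = 0.0316, 0.0482 and 0.0427). RBL2, the gene of the pocket protein p130 of resting cells, had 72.2 and 83.4 CPM under low flow against 54.0 and 57.1 CPM in static cells (log2 fold change 0.49, adjusted p = 0.0105). Under high flow it had 67.8 to 68.9 CPM, also above both static libraries, and did not pass. RB1 had log2 fold changes of -0.17 under high flow (adjusted p = 0.302) and -0.05 under low flow (adjusted p = 0.819), and E2F1 had -0.11 (adjusted p = 0.549) and -0.22 (adjusted p = 0.226). The list's median was -0.10 under high flow and -0.16 under low flow.

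Of 20 E2F target genes of the G1/S step, 0 rose and 4 fell under high flow, and 0 rose and 5 fell under low flow. Of all genes tested, 6.43% passed lower under high flow and 3.49% under low flow. The 5 include CCNE1, which is also counted among the other G1 cyclin genes above. All 20 E2F targets had a log2 fold change below 0 under low flow and 18 under high flow. Their medians were -0.30 and -0.22, beside 0.01 and 0.00 over all genes tested. CCNA2, the gene of the S phase cyclin A2, fell under high flow (-0.45, adjusted p = 0.0152) and low flow (-0.51, adjusted p = 0.0142). SLBP, RRM1 and PCNA, of histone mRNA processing, nucleotide synthesis and the replication clamp, fell under high flow with log2 fold changes of -0.32, -0.34 and -0.34 (adjusted p = 0.0294, 0.0300 and 0.0349). UHRF1 and MYBL2 fell under low flow with -0.43 and -0.54 (adjusted p = 0.0160 and 0.0201). Of 7 proliferation genes of G2 and mitosis, 1 fell under high flow and 4 under low flow, with 0 higher in either. BUB1, of the spindle checkpoint, fell under high flow (-0.55, adjusted p = 0.0121) and low flow (-0.58, adjusted p = 0.0165), while CDC20, PLK1 and AURKA fell under low flow with -0.65, -0.55 and -0.42 (adjusted p = 0.00345, 0.00681 and 0.0221). MKI67 had log2 fold changes of -0.12 under high flow (adjusted p = 0.659) and -0.44 under low flow (adjusted p = 0.109). The list's median was -0.22 under high flow and -0.44 under low flow.

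Of 18 known transcriptional controllers of CDKN1A, CDKN1B and CCND1, 3 rose and 1 fell under high flow, and 2 rose and 3 fell under low flow, with medians of 0.16 and 0.10. KLF4, an activator of CDKN1A, rose under high flow (log2 fold change 0.60, adjusted p = 0.00164) and had 0.24 under low flow (adjusted p = 0.169). FOXO4, of the forkhead factors that activate CDKN1B, rose under high flow (0.63, adjusted p = 0.00485) and low flow (0.61, adjusted p = 0.0109), and so did CTNNB1, which encodes beta-catenin (0.40 and 0.43, adjusted p = 0.0156 and 0.0182). EZH2, a Polycomb methyltransferase, fell under high flow (-0.49, adjusted p = 0.00834) and low flow (-0.52, adjusted p = 0.0122), and FOXM1 fell under low flow (-0.44, adjusted p = 0.0126). MYC, which encodes a repressor of CDKN1A, had 52.0 and 50.8 CPM in static cells, 42.6 and 35.3 CPM at 1 mL/min and 68.7 and 59.9 CPM at 15 mL/min. It fell under low flow against static (-0.40, adjusted p = 0.0383), and its log2 fold change under high flow against static was 0.32 (adjusted p = 0.0587). In high flow against low flow it rose (0.72, adjusted p = 0.00427), a call lost without high flow replicate 1 (0.62, adjusted p = 0.178). MYC was the 1 gene of these lists that passed in high flow against low flow.

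Many of these calls on listed genes rested on single libraries. Of the 19 listed genes named by their p for high flow against static, 0 passed without high flow replicate 1, 7 without high flow replicate 2, 12 without static replicate 1 and 2 without static replicate 2. With length and GC offsets 8 passed. Of the 17 named by their p for low flow against static, which do not include MYC, 2 passed without low flow replicate 2, 7 without static replicate 1, 3 without static replicate 2, 12 without high flow replicate 1 and 12 without high flow replicate 2, while all 17 passed without low flow replicate 1. Of the 17, 16 passed with offsets. For MYC in low flow against static the adjusted p was 0.406 without low flow replicate 2, 0.121 without static replicate 1, 0.169 without static replicate 2, 0.0705 without high flow replicate 1 and 0.0674 without high flow replicate 2.

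**Figure D4:**
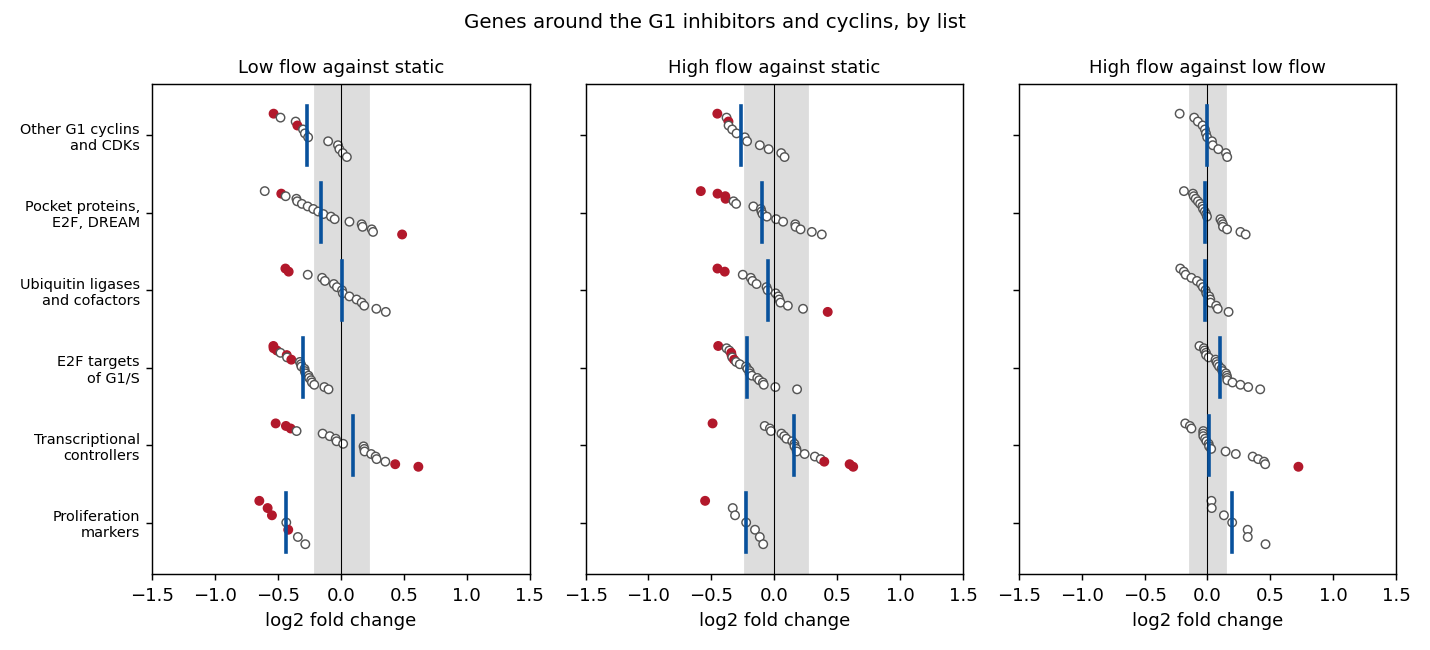
Log2 fold change of each tested gene of 6 lists in the 3 comparisons, 1 panel per comparison and 1 point per gene, filled red where the adjusted p was under 0.05, with a blue bar at the list's median and a grey band for the interquartile range of all tested genes. All 20 E2F target genes lie below 0 in low flow against static, with a median of -0.30.

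The genes whose levels followed a member most closely were found as the smallest root mean square difference between centred log2 CPM values over the 6 libraries, among 12667 genes that averaged 4 CPM or more. For CDKN1A they were LINC00511 (0.0473), ZNF668 (0.0533) and MAFK (0.0593), on the log2 scale, where CDKN1A itself varied by 0.275 around its mean. LINC00511 had 25.7 and 22.95 CPM in static cells, 28.8 and 29.0 CPM at 1 mL/min and 39.5 and 37.2 CPM at 15 mL/min. For CDKN1B they were TLCD5 (0.0845), Z95115.1 (0.0923) and TMEM161B-AS1 (0.0936), each farther from it than the 3 nearest genes were from any other member that passed. TLCD5 had 13.2 and 12.997 CPM in static cells, 13.1 and 13.8 CPM at 1 mL/min and 9.15 and 9.48 CPM at 15 mL/min, so its low flow and static libraries overlapped, unlike those of CDKN1B. For CDKN1C they were LSM6 (0.0649), AC092651.1 (0.0679) and LINC00641 (0.0782), for CDKN2D PRELID1 (0.0219), MRPL37 (0.0284) and EPDR1 (0.0286), and for CCNE2 AC092329.3 (0.0427), CLIP1 (0.0485) and TIPIN (0.0516). With 6 libraries and 12667 genes, close patterns are common, and no test was run.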

How the data were processed

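RNA of 6 libraries of bone-homing MDA-MB-231 cells was made, per the labels' protocols, by TRIzol extraction and the stranded mRNA kit of KAPA. The authors deposited raw counts per gene symbol (60591 rows), made with STAR, featureCounts and hg38 according to the submitters' processing notes. Versions, annotation and strand setting are not given in the sources used here. Columns were matched to samples through the names in the labels. Libraries of a condition differed beyond counting noise (chi-square per degree of freedom 12.1 to 29.8).

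All genes were fitted with edgeR 4.0.16 (R 4.3.3, TMM, robust quasi-likelihood test, two-sided, minimum count of 10, 20676 genes, all 6 libraries, 3 residual degrees of freedom) and adjusted by Benjamini-Hochberg with a threshold of 0.05, and the fit was checked on simulated data. Intervals use the fit's moderated degrees of freedom. CPM of the deposited counts use TMM factors. Lengths and positions came from GENCODE 29 and promoters from RefSeq. Members and lists were chosen with earlier results of these data known. Named genes were all members, up to 4 passing genes per list and comparison by p, 12 genes whatever their p, and the 3 nearest patterns of each member that passed. The results of 1 such gene and of 1 list are not reported here.

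Same-numbered libraries did not vary together over all genes (correlation of deviations -0.14 for low flow and static, -0.05 for high flow and static, and 0.14 for high and low flow), so no replicate block was used. Alternatives were RLE and upper quartile scaling, no filter, DESeq2 1.42.0, a replicate block, only the 4 libraries compared, offsets for length and GC content, and leaving out each library.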

Additional observations from a re-analysis of the deposited data

Results flagged for a closer look

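The test of high flow against low flow asks whether the effects of the flow rates on static cells differ, and it passed for 1 member and 1 listed gene. For CDKN1B the log2 fold change of high flow against low flow was -0.69 (SE 0.10, adjusted p = 0.00427 by edgeR), with both high flow libraries below both low flow libraries. For MYC it was 0.72 (SE 0.11, adjusted p = 0.00427), with both high flow libraries above both low flow libraries. Both calls were lost without high flow replicate 1, and that of CDKN1B also without high flow replicate 2. The log2 fold change of CDKN1B was then -0.69 and -0.70. The high flow libraries came from another lane, so the lane cannot be told apart from the flow rate here.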

How the results depend on the processing

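Leaving out a library leaves its condition with 1, which is then assumed to vary like the others. In low flow against static 2 members passed, against 1 with the replicate block, 4 with length and GC offsets, 1 with only the 4 libraries compared, 4 with a crossed replicate block (static numbers exchanged, added after seeing the data) and 0 to 5 with a library left out. Of all genes 1394 passed there, against 2260 with no filter, 907 with the replicate block, 604 with 4 libraries, 2229 with the crossed block and 95 to 3111 with a library left out. In high flow against static 5 members and 2878 genes passed, against 1 to 5 members and 300 to 4004 genes with a library left out, and 2266 genes with the replicate block. In high flow against low flow 1 member and 69 genes passed, against 2 members with no filter or DESeq2 and 0 to 2 with a library left out, and 241 genes with no filter, 36 with 4 libraries, 113 with DESeq2, 55 with the replicate block and 4 to 294 with a library left out. The block's numbers are shared without any sign that they pair the samples. With offsets the calls split 926 higher and 1220 lower in high flow against static, where they were 1549 and 1329, and 736 and 1176 in low flow against static, where they were 672 and 722.

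Log2 fold changes that turned sign passed in neither setting. With no filter these were CDK6 (0.0042) and MDM2 (0.0082) in low flow against static. With offsets they were CDK6 (0.0053) in high flow against static and, in high flow against low flow, CDKN1C (-0.046), CDKN2D (-0.087), CCNE2 (0.039), CDK4 (-0.0052), CDK6 (0.081), CCND2 (0.012), RB1 (0.016), E2F1 (-0.0299) and SKP2 (0.084). With a library left out they ranged, in high flow against low flow, from -0.15 to 0.14 for CCND2, -0.34 to 0.19 for CCNE2, -0.11 to 0.062 for CDK6, -0.064 to 0.27 for CDKN1C, -0.039 to 0.29 for E2F1 and -0.14 to 0.11 for SKP2. For high flow against static the ranges were -0.31 to 0.11 for CCND2, -0.14 to 0.041 for CCND3, -0.061 to 0.24 for CDK4, -0.15 to 0.072 for CDK6 and -0.32 to 0.13 for MKI67. In low flow against static they ranged from -0.069 to 0.17 for CCND1, -0.30 to 0.12 for CCND2, -0.10 to 0.21 for CDK4, -0.13 to 0.092 for CDK6, -0.054 to 0.0198 for MDM2 and -0.16 to 0.0799 for RB1. The cause of these changes was not tested. For CDKN2A and CDKN2B, depth allows a level of up to 0.0130 CPM over the 6 libraries.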
